A study of Sus scrofa with 15 samples.

Results

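The genes described here are the 6 mitochondrially encoded subunits of cytochrome c oxidase, ATP synthase and the cytochrome bc1 complex, measured in LLC-PK1 cells transfected with plasmids for human PKD2. They are COX1 (ENSSSCG00000018075), COX2 (ENSSSCG00000018078) and COX3 (ENSSSCG00000018082) of cytochrome c oxidase, ATP6 (ENSSSCG00000018081) and ATP8 (ENSSSCG00000018080) of ATP synthase, and CYTB (ENSSSCG00000018094) of the cytochrome bc1 complex. The rule that picked them uses what they encode and no measured value, and they are 6 of the 16660 genes in the count table. All 6 were among the 11553 genes that passed the filter on low counts, a mean of 2 CPM or more over the libraries, CPM being the usual measure of counts scaled to the total of a library.

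LLC-PK1 is a line of pig renal proximal tubule epithelial cells. Cells were transiently transfected with 3 µg of 1 of 5 plasmids, and polyadenylated RNA was sequenced 48 h later from 3 wells per plasmid, giving 15 libraries. NC was the empty backbone, WT carried unmutated human PKD2, Tg1 carried the change A1532T in the coding sequence (D511V in the protein), Tg2 carried T1967G (L656W) and Tg3 carried C2224T (R742X), a stop codon that removes the C-terminal end of the protein together with its FLAG tag. All plasmids shared the pH11 homology sequence and a loxP-flanked neomycin cassette, all cells kept their own pig genes, and expression was driven by the strong and broadly active CAG promoter, so the transgenes were overexpressed in 1 line. Nothing in the labels says whether the wells came from separate cultures, and the p-values therefore measure the spread between these wells, which may be technical. Totals ranged from 20216200 to 26132196 counts per library. The markers fitted a tubule epithelium: median levels over the 15 libraries were 2303 CPM for keratin KRT8, 356 CPM for E-cadherin (CDH1), 255 CPM for megalin (LRP2) and 257 CPM for the water channel AQP1. Their levels were not constant: KRT8 ran from 2195 to 2463 CPM, CDH1 from 311 to 403, LRP2 from 206 to 319 and AQP1 from 194 to 347. The mean of CDH1 was 317 CPM in NC and 389 CPM in Tg2. Markers of leukocytes (PTPRC), endothelium (CDH5) and pericytes (PDGFRB) had medians of 0 CPM, those of the fibroblast and endothelial genes COL1A1, COL3A1 and PECAM1 were 0.859, 0.341 and 1.04 CPM, whereas the T cell gene CD3E had a median of 20.4 CPM. PAX8 and GGT1 were not matched to an identifier.

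Mitochondria keep a small circular genome whose protein genes all encode subunits of the respiratory chain or of ATP synthase. It is copied into long RNAs by the polymerase POLRMT with the help of the DNA-packaging factor TFAM. These RNAs are cut mainly at the tRNAs, which lie between many but not all of the genes, and given short poly(A) tails. Cytochrome b passes electrons from ubiquinol to cytochrome c, COX1 to COX3 form the core of the enzyme that hands them to oxygen, and ATP6 and ATP8 belong to the membrane part of ATP synthase, which uses the proton gradient that results. The proximal tubule is known for its many mitochondria, since reabsorption there uses much ATP. In the RefSeq annotation of the Sscrofa11.1 assembly the genes lie in the order COX1, COX2, ATP8, ATP6 and COX3, with CYTB farther along. ATP8 overlaps ATP6, and ATP6 overlaps COX3 at its end, so reads from the overlaps may have been divided between those genes in the quantification. No tRNA lies between ATP8 and ATP6 or between ATP6 and COX3. The 6 mRNAs are therefore counted here as 6 annotated genes, and neighbours without a tRNA between them need not be separate RNAs.

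The 6 mRNAs made up 2.67% ± 0.106 of all counts in NC (mean ± SD, n = 3 for each plasmid), and the shares of WT, Tg1, Tg2 and Tg3 were 2.53% ± 0.110, 2.48% ± 0.131, 2.41% ± 0.107 and 2.35% ± 0.0993. The 3 NC libraries lay at 2.62%, 2.60% and 2.80%. The Tg2 libraries lay at 2.30%, 2.44% and 2.51% and the Tg3 libraries at 2.24%, 2.44% and 2.37%, so that neither group overlapped NC. For all 13 mitochondrially encoded mRNAs the difference was smaller on the TMM scale: their share was 3.26% in NC and 2.88% in Tg2 of the raw totals, and 3.19% and 2.97% of the TMM-scaled totals, where the 2 groups still did not overlap. On that scale the shares of WT, Tg1 and Tg3 were 3.04%, 3.00% and 2.85%, and these groups did not overlap NC either. The margin was narrow for WT and Tg1, at 3.112% and 3.110% at most, against at least 3.115% in NC. In whole culture wells, fewer mitochondria-rich cells and less mitochondrial RNA per cell cannot be told apart. COX1 alone gave 1.55 to 1.83% of the counts of a library, and the other 5 genes together gave 0.679 to 0.970%. The counts behind each value were large: COX1 had 312946 to 457499 counts per library, CYTB had 11403 to 26117 and ATP8, the least counted of the 6, had 1760 to 3217.

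**Figure D1:**
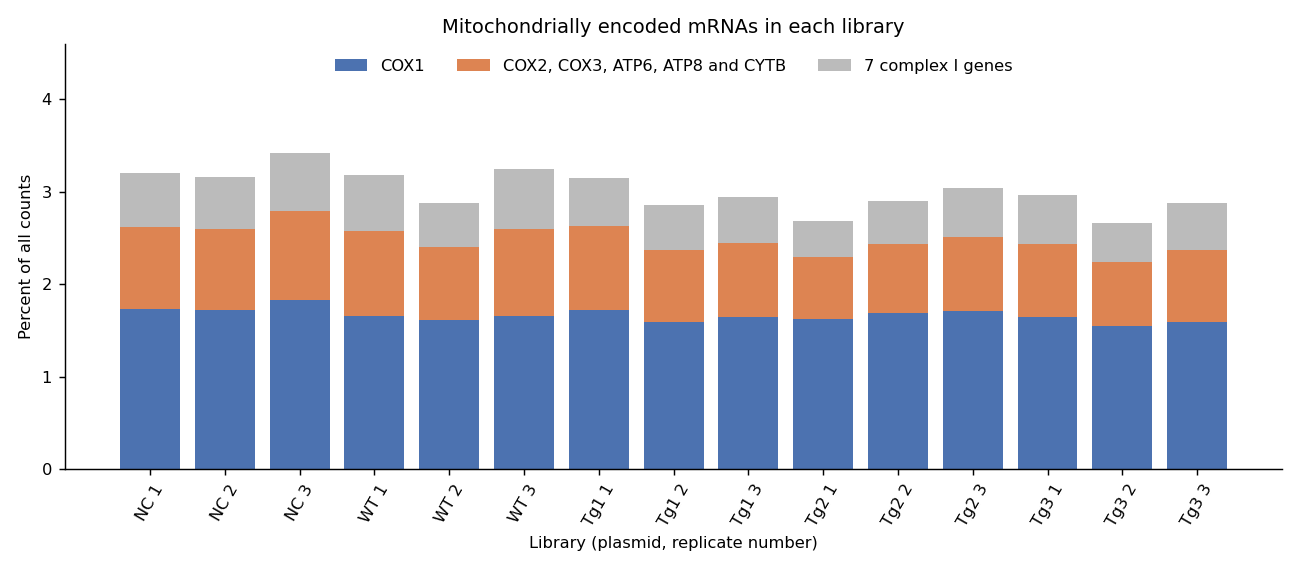
Percent of all counts (vertical axis, starting at 0) given by COX1, by the other 5 genes together and by the 7 mitochondrially encoded complex I genes in each of the 15 libraries (horizontal axis, plasmid and replicate number). The COX1 segment stays between 1.55 and 1.83%, and the segment of the other 5 genes is lowest in Tg2 replicate 1 and Tg3 replicate 2.

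Some libraries stood apart from others of their plasmid. Over all tested genes, the first principal component (the 6 genes included) held 51.0% of the variance, and on it WT replicate 2 (-6.84) lay far from WT replicates 1 (15.5) and 3 (25.2). WT replicates 2 and 3 also differed most in their counts of any pair of replicates, with a chi-square of 40.3 per degree of freedom, against 2.73 for the most similar pair (Tg3 replicates 1 and 3). WT replicate 2, Tg2 replicate 1 and Tg3 replicate 2 were also the 3 libraries in which the mean of the 6 mRNAs lay farthest below that of their plasmid, with deviations of -0.10, -0.09 and -0.12 on the log2 scale. Comparisons with WT are therefore also given without WT replicate 2. Since that library was low in these genes other than COX1, leaving it out raises their WT mean by construction. Calls gained in this way are partly fixed by the choice and are no separate support.

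Compared with NC, ATP8 and CYTB mRNAs fell in Tg2, to 0.766 and 0.744 times their NC level, and no other of the 6 mRNAs passed the call in any of the 7 comparisons. A call required edgeR's quasi-likelihood test to give an adjusted p of at most 0.05 (Benjamini-Hochberg, over all 11553 genes) and a log2 fold change of at least 0.26 in either direction. The 2 calls among 6 genes in Tg2 stand beside 8.43% of all tested genes called in that comparison, and DESeq2 also called 2 of the 6 there, with 10.8% of the genes it adjusted. COX2, COX3 and ATP6 were at 0.848 to 0.890 times their NC level in Tg2 without reaching the fold threshold, and COX1 was at 1.00 times. The 4 comparisons with NC share the same 3 NC libraries.

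**Figure D2:**
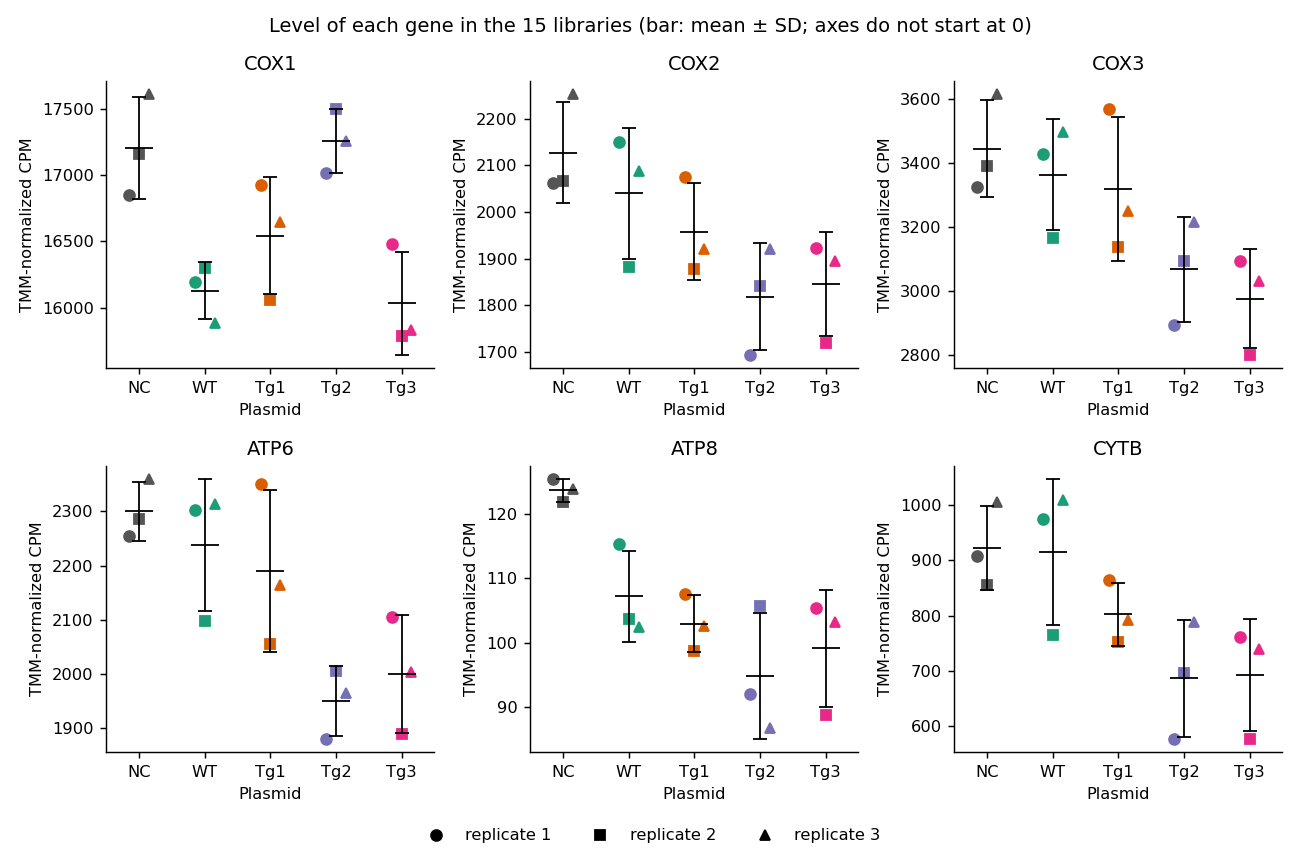
TMM-normalized CPM (vertical axis, not starting at 0) of each gene by plasmid (horizontal axis); points are libraries, marked by replicate number, and bars give the mean ± SD of 3 libraries. The mean of COX1 is 17257 CPM in Tg2 and 17204 CPM in NC, while the Tg2 and Tg3 points of the other 5 genes lie below all NC points.

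COX1 is the catalytic subunit of cytochrome c oxidase and carries its heme and copper centre. Its level was 16847, 17155 and 17609 CPM in the NC libraries (replicates 1, 2 and 3), 17013, 17500 and 17258 CPM in Tg2 and 16479, 15786 and 15835 CPM in Tg3. In WT it was 16198, 16300 and 15888 CPM, and in Tg1 it was 16922, 16062 and 16645 CPM. The Tg2 libraries lay within the NC range, the WT and Tg3 libraries lay below every NC library, and the Tg1 libraries overlapped NC. The difference from NC was 0.00 ± 0.03 on the log2 scale in Tg2 (SE; adjusted p = 0.932, edgeR), -0.09 ± 0.03 in WT (adjusted p = 0.867) and -0.10 ± 0.03 in Tg3 (adjusted p = 0.161). COX1 varied least of the 6 genes, with a ratio of 1.12 between its highest library (NC replicate 3) and its lowest (Tg3 replicate 2). It was also the one gene of the 6 with a higher level in Tg2 than in WT, where its 3 Tg2 libraries were above all WT libraries (0.10 ± 0.03, adjusted p = 0.0531).

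COX2, which takes electrons from cytochrome c, and COX3, a core subunit without redox centres, were lower in every Tg2 and Tg3 library than in NC. COX2 was at 2062, 2067 and 2252 CPM in NC, at 1694, 1842 and 1920 CPM in Tg2 and at 1923, 1720 and 1895 CPM in Tg3. COX3 was at 3327, 3393 and 3616 CPM in NC, at 2893, 3094 and 3216 CPM in Tg2 and at 3095, 2800 and 3032 CPM in Tg3. For both genes Tg2 and Tg3 did not overlap NC, while WT and Tg1 did. In Tg2 the log2 difference from NC was -0.23 ± 0.06 for COX2 (adjusted p = 0.0370, under the fold threshold) and -0.17 ± 0.06 for COX3 (adjusted p = 0.0680). In Tg3 it was -0.20 ± 0.06 for COX2 (adjusted p = 0.171) and -0.21 ± 0.06 for COX3 (adjusted p = 0.158). Without Tg2 replicate 3, COX2 passed the call, at -0.27 (adjusted p = 0.0219) in a fit that called 1880 genes of the whole table instead of 974, whereas without NC replicate 1, NC replicate 3, Tg2 replicate 1 or Tg2 replicate 2 its adjusted p was 0.0804, 0.147, 0.148 and 0.0972.

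ATP6 forms the proton path of ATP synthase beside the rotating ring, and ATP8 is a small membrane subunit next to it. ATP6 was at 2254, 2286 and 2361 CPM in NC, at 1880, 2005 and 1965 CPM in Tg2 and at 2106, 1889 and 2004 CPM in Tg3. ATP8 was at 125, 122 and 124 CPM in NC, at 92.0, 106 and 86.7 CPM in Tg2 and at 105, 88.8 and 103 CPM in Tg3. Neither Tg2 nor Tg3 overlapped NC for either gene. In Tg2, ATP6 differed from NC by -0.24 ± 0.06 on the log2 scale (adjusted p = 0.0216), which does not reach the fold threshold, and ATP8 fell by 0.38 ± 0.08 (adjusted p = 0.0152). ATP8 was also at 115, 104 and 103 CPM in WT and at 107, 98.7 and 103 CPM in Tg1, below every NC library in both groups. The differences from NC were -0.21 ± 0.08 in WT (adjusted p = 1.00), -0.26 ± 0.08 in Tg1 (adjusted p = 0.0765) and -0.32 ± 0.08 in Tg3 (adjusted p = 0.144).

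CYTB, a heme-bearing subunit of the cytochrome bc1 complex, spanned the widest range of the 6 genes, with a ratio of 1.75 between its highest and its lowest library. It was at 907, 855 and 1005 CPM in NC, at 575, 695 and 788 CPM in Tg2 and at 760, 575 and 740 CPM in Tg3. In WT it was at 975, 764 and 1009 CPM, and in Tg1 at 864, 751 and 791 CPM. The Tg2 and Tg3 libraries were all below NC, the Tg1 libraries overlapped NC at replicate 1, and WT replicate 2 lay far below WT replicates 1 and 3. CYTB fell in Tg2 by 0.43 ± 0.13 on the log2 scale (adjusted p = 0.0443), while in Tg3 the difference of -0.42 ± 0.13 had an adjusted p of 0.167. In Tg1 it was -0.20 ± 0.13 (adjusted p = 0.400) and in WT -0.01 ± 0.13 (adjusted p = 1.00).

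The calls of ATP8 and CYTB in Tg2 depended on which libraries were included. Of the 6 fits that each left out 1 of the libraries compared, 4 called neither gene: those without NC replicate 1, NC replicate 3, Tg2 replicate 1 or Tg2 replicate 2, in which 24, 0, 48 and 0 genes of the whole table were called. The adjusted p of ATP8 in those fits was 0.0558, 0.0746, 0.0690 and 0.0517, and that of CYTB 0.104, 0.160, 0.171 and 0.114. The direction stayed: over the 6 fits the log2 difference lay between -0.47 and -0.32 for ATP8 and between -0.54 and -0.32 for CYTB.

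In Tg3, all 6 mRNAs had every library below every NC library, which 13.9% of all tested genes did, and none was called, as for 0% of all genes in this comparison. The unadjusted p was under 0.05 for all 6, against 18.1% of tested genes, and the adjusted p-values lay between 0.144 and 0.171. DESeq2 called 1 of them, ATP8 (-0.32, adjusted p = 0.0212), where it called 0.759% of the genes it adjusted. In Tg2, 5 of the 6 lay below NC, against 18% of tested genes, and 5 had an unadjusted p under 0.05, against 35.2%. The median log2 difference of the 6 from NC was -0.23 in Tg2 and -0.21 in Tg3, where the median of all tested genes was -0.01 and -0.00.

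In neither WT nor Tg1 was any of the 6 genes called against NC by edgeR. In WT, edgeR called 0 of the 6 genes and 0% of all genes. Unadjusted p-values were under 0.05 for 2 of the 6 (COX1 and ATP8), against 4.54% of tested genes, 2 lay below NC, against 4.69%, and DESeq2 called 0 of the 6 and 0.362% of the genes it adjusted. In Tg1, edgeR called 0 of the 6 and 1.19% of all genes. There 1 gene, ATP8, had an unadjusted p under 0.05 (19.9% of tested genes) and lay below NC (14.8%), and DESeq2 called it at -0.26 (adjusted p = 0.0341; 2.24% of the genes DESeq2 adjusted). All 6 estimates were below 0 in WT and in Tg1, with medians of -0.05 and -0.10, where 51.8% and 49.0% of all tested genes had estimates below 0. Without WT replicate 2, the WT estimates of COX3 (0.01), ATP6 (0.01) and CYTB (0.10) were above 0.

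**Figure D3:**
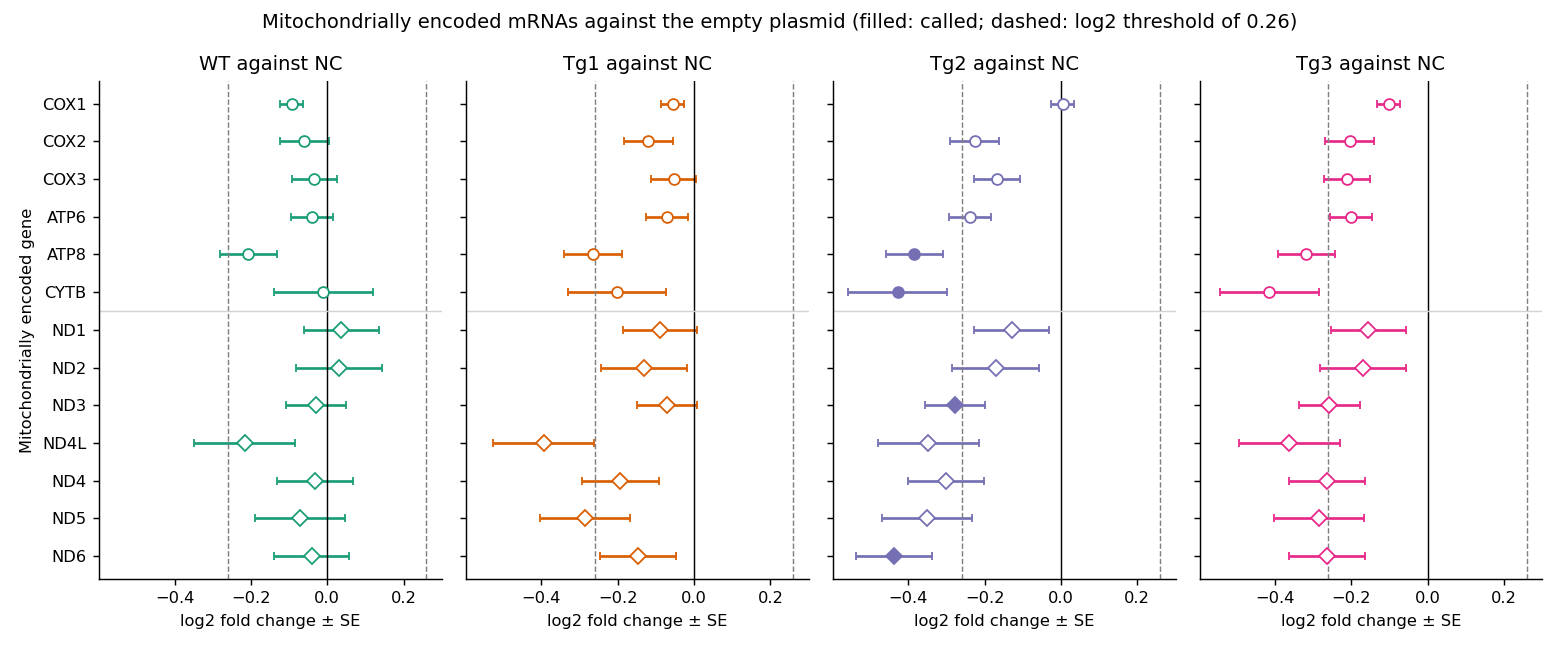
Log2 fold change against NC (horizontal axis, ± SE) of the 6 genes (circles) and the 7 mitochondrially encoded complex I genes (diamonds), with 1 panel for each PKD2 plasmid; filled symbols were called, and dashed lines mark the log2 threshold of 0.26. In Tg2, ATP8, CYTB, ND3 and ND6 are filled and COX1 sits at 0.00.

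Against WT, the plasmid with unmutated PKD2, none of the 6 genes was called in any mutant. Transgene levels were not compared here, so an effect of a mutation and one of a different transgene level cannot be told apart. In Tg1 the calls were 0 of 6 and 0.0692% of all genes. None had an unadjusted p under 0.05 (15.6% of tested genes) or lay wholly below WT (8.45%), and DESeq2 called 0 of the 6 and 0.807% of the genes it adjusted. In Tg2 the calls were 0 of 6 and 5.92% of all genes, although all 6 had an unadjusted p under 0.05 (34.3% of tested genes). ATP6 was the gene with every Tg2 library below WT, as 12.4% of tested genes were, at -0.20 ± 0.06 (adjusted p = 0.0417, under the fold threshold). CYTB differed from WT by -0.42 ± 0.13 (adjusted p = 0.0537), and DESeq2 called it (adjusted p = 0.0186; 10.2% of the genes DESeq2 adjusted).

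In Tg3 the calls against WT were 0 of 6 and 0% of all genes. Unadjusted p-values were under 0.05 for 4 of the 6, against 19.2% of tested genes. COX3 (-0.18 ± 0.06, adjusted p = 0.161) and CYTB (-0.40 ± 0.13, adjusted p = 0.152) lay wholly below WT, which 10.3% of tested genes did, and DESeq2 called 0 of the 6 and 1.11% of the genes it adjusted. Leaving out WT replicate 2 left all 6 genes uncalled in Tg1 against WT, with CYTB at -0.31 (adjusted p = 0.114) and 854 genes called in the whole table. It brought CYTB past the call in both mutants, at -0.53 in Tg2 (adjusted p = 0.00596) and -0.52 in Tg3 (adjusted p = 0.0186), with 2421 and 1321 genes called in the whole table. In that fit COX2, COX3 and ATP6 stayed under the fold threshold, with adjusted p-values of 0.0180, 0.0420 and 0.00543 in Tg2 and 0.0468, 0.0291 and 0.0260 in Tg3, as did COX1 in Tg2 (0.11, adjusted p = 0.0321), and the adjusted p of ATP8 was 0.0817 in Tg2 and 0.280 in Tg3. Leaving out Tg2 replicate 3 also brought CYTB past the call against WT in Tg2 (-0.53, adjusted p = 0.0229), in a fit that called 1878 genes of the whole table. Leaving out Tg2 replicate 1 or Tg3 replicate 2, which were also low in the 6 mRNAs, moved CYTB the other way. Against WT it was then uncalled, at -0.31 in Tg2 (adjusted p = 0.203) and -0.29 in Tg3 (adjusted p = 0.480).

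Ordered by their means, COX2, ATP6, ATP8 and CYTB were highest in NC, followed by WT, Tg1, Tg3 and Tg2. COX3 had the same order with Tg2 and Tg3 exchanged, and COX1 was highest in Tg2, followed by NC, Tg1, WT and Tg3. Between neighbours in these orders the libraries overlapped, with the exception of ATP8 in NC and WT.

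The counts of the other 5 genes were also set against those of COX1 in the same library. CYTB had 5.36 ± 0.362 counts per 100 COX1 counts of the same library in NC, 3.97 ± 0.592 in Tg2 and 4.31 ± 0.579 in Tg3 (mean ± SD, n = 3). ATP6 had 13.4 ± 0.0396 in NC, 11.3 ± 0.220 in Tg2 and 12.5 ± 0.438 in Tg3. ATP8 had 0.719 ± 0.0221 in NC, 0.549 ± 0.0514 in Tg2 and 0.618 ± 0.0487 in Tg3. In Tg2 and in Tg3 these counts were below every NC library for all 5 genes, also for COX2 (12.4 in NC, 10.5 in Tg2 and 11.5 in Tg3) and COX3 (19.7 to 20.5 in the NC libraries, with means of 17.8 in Tg2 and 18.6 in Tg3). In Tg1 only ATP8 lay below NC, and in WT none did. The exact permutation test, two-sided, gave p = 0.1 for each of the ratios that did not overlap NC, the smallest that 3 against 3 libraries allow (0.182 after Benjamini-Hochberg adjustment over 20 comparisons). COX1 made up 54.0% ± 0.624 of the counts of all 13 mitochondrially encoded mRNAs in NC, and in WT, Tg1, Tg2 and Tg3 its shares of them were 53.0% ± 2.61, 55.2% ± 0.681, 58.2% ± 1.92 and 56.2% ± 1.61. The share of all tested genes below NC in this ratio was not computed, so whether the 5 genes stand out in it is not known. In CPM, 18% of tested genes in Tg2, 13.9% in Tg3, 14.8% in Tg1 and 4.69% in WT lay wholly below NC. The 5 ratios of a library also share its COX1 count. A ratio to COX1 also does not show which of the 2 genes moved.

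**Figure D4:**
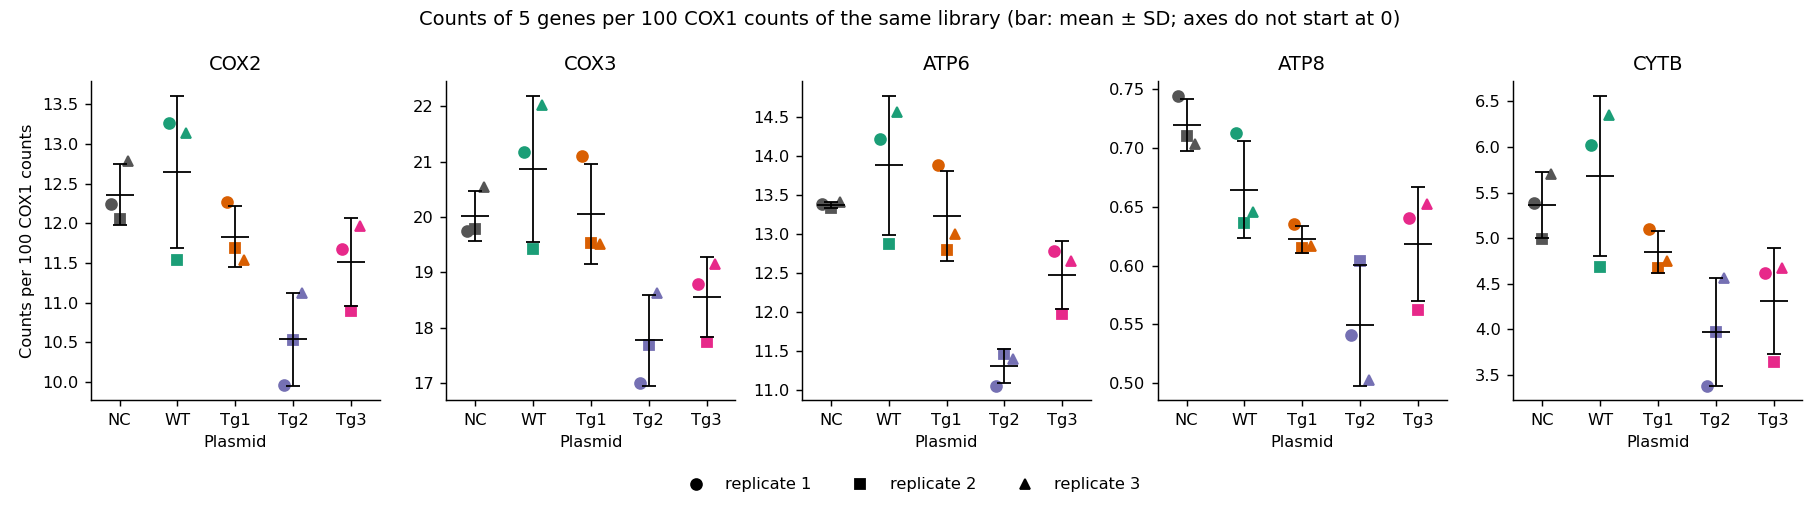
Counts per 100 COX1 counts of the same library (vertical axes, not starting at 0) for 5 genes by plasmid (horizontal axes); points are libraries and bars give the mean ± SD of 3. The mean of ATP6 is 11.3 in Tg2 and 13.4 in NC.

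Across the 15 libraries, the levels of COX2, COX3, ATP6 and CYTB moved closely together, with Pearson correlations of log2 CPM from 0.918 to 0.968 for their pairs (n = 15). ATP8 followed them less closely, from 0.673 to 0.802, and COX1 least, from 0.130 to 0.324 with the other 5. Taking out the plasmid means left 0.825 to 0.962 for the pairs of the first 4 genes, 0.396 to 0.604 for ATP8 with those 4 and 0.385 to 0.640 for COX1 with the other 5, so that within plasmids COX1 no longer stood below ATP8. These points share their libraries, depth and normalization, and they are given as a description. The 4 closely moving genes also followed the main axis of variation of all tested genes. With the first principal component the correlation was 0.931 for CYTB, 0.901 for COX2, 0.846 for ATP6, 0.836 for COX3, 0.578 for ATP8 and -0.106 for COX1, and with the TMM normalization factor it was 0.906 for CYTB and -0.108 for COX1. The normalization factors ran from 0.952 in Tg2 replicate 1 to 1.04 in WT replicate 3. Correlations with the total count of a library lay between 0.147 and 0.327 for the 6 genes. The NC libraries lay at 11.0, 1.04 and 17.5 on this axis, and those of Tg2 at -22.2, -17.4 and -2.83. The part of this axis in the differences from NC was not tested.

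**Figure D5:**
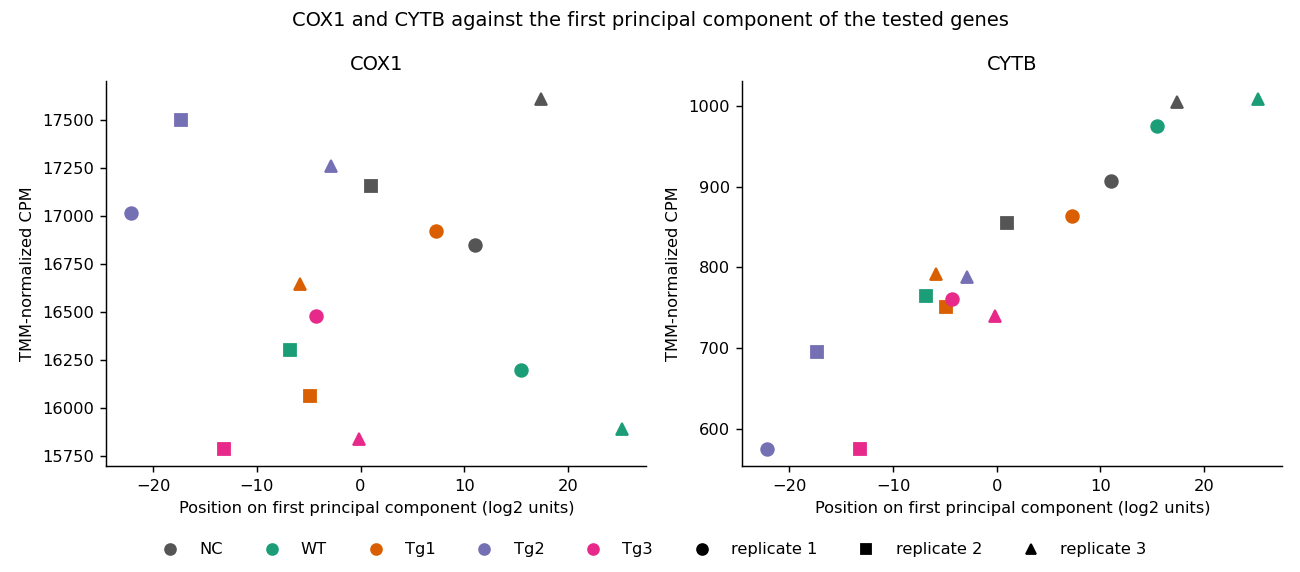
COX1 (left) and CYTB (right) in TMM-normalized CPM (vertical axes, not starting at 0) against the position of each library on the first principal component of all tested genes (horizontal axes); colours give the plasmid and symbols the replicate number. CYTB follows the component closely (r = 0.931), from Tg2 replicate 1 at 575 CPM to WT replicate 3 at 1009 CPM, and COX1 does not (r = -0.106).

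The 7 other mitochondrially encoded mRNAs are subunits of complex I, the entry point of electrons from NADH. Against NC in Tg2, all 7 were lower in estimate and 2 were called: ND3, which fell by 0.28 ± 0.08 on the log2 scale (adjusted p = 0.0377), and ND6, which fell by 0.44 ± 0.10 (adjusted p = 0.0210). These 2 of 7 stand beside 8.43% of all tested genes. DESeq2 called 4 of the 7 there, ND4 and ND5 beside these, and 10.8% of the genes it adjusted. In edgeR both calls were lost without NC replicate 1, NC replicate 3, Tg2 replicate 1 or Tg2 replicate 2, with adjusted p-values of up to 0.1401 for ND3 and 0.0895 for ND6. The median difference of the 7 was -0.30 in Tg2, -0.26 in Tg3 and -0.15 in Tg1, with 0 called in Tg3 and Tg1 by edgeR (0% and 1.19% of all genes) or DESeq2 (0.759% and 2.24% of those it adjusted) and 5 and 2 at an unadjusted p under 0.05, against 18.1% and 19.9% of tested genes. All libraries lay below NC for 5 of the 7 in Tg2, 6 in Tg3 and 6 in Tg1, against 18%, 13.9% and 14.8% of tested genes. In WT the median difference of the 7 from NC was -0.03, and 5 estimates were below 0 (51.8% of all tested genes). There edgeR and DESeq2 called 0 of the 7 (0% of all genes and 0.362% of those DESeq2 adjusted). In WT 0 of the 7 had an unadjusted p under 0.05 (4.54% of tested genes), and 0 lay wholly below NC (4.69%). Against WT, ND6 was the 1 gene of the 7 called in Tg2, by both tools, where edgeR called 5.92% of all tested genes and DESeq2 10.2% of those it adjusted (-0.40 ± 0.10, adjusted p = 0.0359), a call that was lost without WT replicate 1, WT replicate 3, Tg2 replicate 1 or Tg2 replicate 2 (adjusted p up to 0.170). Without WT replicate 2, 6 of the 7 were called against WT in Tg2 (all but ND4L) and 5 in Tg3 (all but ND2 and ND4L), in the fits with 2421 and 1321 genes called in the whole table. ND6 overlaps ND5 on the opposite strand, and whether strand was used in the quantification is not given in the sources used here. The mean of the 7 complex I mRNAs correlated across the 15 libraries at 0.971 with CYTB, 0.947 with COX2, 0.874 with COX3, 0.859 with ATP6, 0.684 with ATP8 and 0.139 with COX1. Taking out the plasmid means left 0.982, 0.912, 0.866, 0.791, 0.355 and 0.316, in the same order of genes.

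None of the nuclear-encoded partners of the 6 genes was called in Tg2 against NC. edgeR called 0 of 7 tested genes of complex III (9 listed), 0 of 9 of complex IV (11 listed) and 0 of 11 of ATP synthase (18 listed), with 2, 2 and 0 at an unadjusted p under 0.05, where 35.2% of all tested genes had such a p and 8.43% were called. DESeq2 called 0 of each list, against 10.8% of the genes it adjusted. Their median log2 differences were -0.07, 0.02 and -0.00. For complex III, the core subunit UQCRC2 was at -0.12 ± 0.04 (adjusted p = 0.0679) and the iron-sulfur protein UQCRFS1 at -0.12 ± 0.05 (adjusted p = 0.0926). For complex IV, the regulatory subunit COX4I1 was at 0.17 ± 0.05, above every NC library (adjusted p = 0.0297, under the fold threshold), and COX7B was at -0.09 ± 0.04 (adjusted p = 0.135). Over the 6 fits that each left out 1 library, COX7B lay between -0.12 and -0.06. For ATP synthase, the catalytic-head subunit ATP5F1A was at -0.04 ± 0.03 (adjusted p = 0.425), and between -0.05 and -0.02 over the same 6 fits. In Tg3 the medians of the same 3 lists were -0.03, -0.02 and 0.01, again with 0 calls by edgeR (0% of all genes) or DESeq2 (0.759% of those it adjusted) and with 1, 1 and 0 genes at an unadjusted p under 0.05 (18.1% of tested genes). In Tg1 they were 0.03, 0.07 and 0.06, with 0 calls by edgeR (1.19% of all genes) or DESeq2 (2.24%). There 2, 0 and 0 estimates were below 0, against 49.0% of all tested genes. Unadjusted p-values were under 0.05 for 1, 2 and 2 genes, all upwards, against 19.9%. In WT the medians were -0.02, -0.02 and -0.00, with 0 calls by edgeR (0%) or DESeq2 (0.362%).

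Among 21 tested assembly factors of these complexes (26 listed), 0 were called by edgeR or DESeq2 in Tg2, against 8.43% and 10.8% of all genes, and 2 had an unadjusted p under 0.05, both upwards, against 35.2%. COX10, which makes the heme of cytochrome c oxidase, was at 0.16 ± 0.06 (adjusted p = 0.0895) and COA7 at 0.23 ± 0.10 (adjusted p = 0.114). Over the 6 fits that each left out 1 library, COX10 lay between 0.0755 and 0.209. Of 23 tested genes for mitochondrial transcription and RNA handling (24 listed), 1 was called in Tg2 by edgeR and by DESeq2, against the same 8.43% and 10.8%. POLRMT, the mitochondrial RNA polymerase, rose in Tg2 by 0.27 ± 0.07 (adjusted p = 0.0306), and this call was lost when any 1 of the 6 libraries compared was left out (adjusted p from 0.0518 to 0.107). In Tg3 edgeR called 0 of the 23, with 5 at an unadjusted p under 0.05 (18.1% of tested genes), and DESeq2 called 1, again POLRMT (0.759% of the genes it adjusted), which edgeR had at 0.30 ± 0.07 (adjusted p = 0.144). In Tg2 TBRG4, which acts on mitochondrial mRNA stability, was at 0.23 ± 0.05 (adjusted p = 0.0201, under the fold threshold; called when NC replicate 2 was left out, but not when any other of the 6 libraries was, with an adjusted p of up to 0.0925), and TFAM was at -0.12 ± 0.04 (adjusted p = 0.0723).

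The nuclear genes closest in pattern to the 6 mRNAs, or most opposite to it, were ranked by correlation. The mean log2 level of the 6 over the 15 libraries was compared with each of 10050 other tested genes with a symbol, whose median correlation with it was 0.05. The 5 highest were TMEM178A (r = 0.941), TMEM135 (0.939), PRPF39 (0.928), CHN2 (0.925) and TSPAN32 (0.920), and the 5 lowest were BOP1 (-0.960), C3 (-0.932), MFN2 (-0.924), CDH1 (-0.915) and DOK5 (-0.914). Since these genes were picked for following the 6 mRNAs over the same libraries, their differences between plasmids are part of the choice and are given without a test. TMEM135 had means of 24.7 CPM in NC and 18.0 CPM in Tg2. C3, a complement component, had means of 260.1 CPM in NC and 336 CPM in Tg2, and MFN2, which fuses mitochondria, had means of 78.8 CPM in NC and 91.9 CPM in Tg2. Within plasmids the correlations of these genes were between 0.856 and 0.908 for the first 5 and between -0.931 and -0.813 for the last 5.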

How the data were processed

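The sample labels gave the groups and replicate numbers. From oligo(dT)-selected RNA the authors deposited unnormalized whole-number counts per gene, quantified by Salmon on Ensembl's pig cDNA. The paper gives the Ensembl release of that cDNA. A genome build by name and the strand setting are not given in the sources used here. Genes whose CPM averaged at least 2 entered edgeR 4.0.16 in R 4.3.3 (TMM, quasi-likelihood test, all 15 libraries in 1 model, Benjamini-Hochberg adjustment over 11553 genes). The threshold pair follows the study's methods. SE is the estimate divided by the root of its F statistic. Levels are TMM-normalized CPM. On simulated counts for Tg1 against NC (11553 genes), 100% of 100 genes changed by log2 1 and 93% of 100 changed by 0.5 were recovered, with 8 false calls. These counts were drawn gene by gene with 1 common dispersion and no axis shared between genes. The real libraries had such an axis, so these rates do not give the recovery in the data.

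The genes, the lists and the rule for named genes (the 3 genes with the smallest p in each nuclear list in Tg2 against NC, some of which are printed, and the 5 highest and 5 lowest correlations) were chosen with earlier results of these data known. Same-numbered libraries of WT and NC deviated in the same direction (correlations of 0.154, 0.544 and 0.457). The labels give only a replicate number, so these correlations do not establish a pairing. A replicate block did not change any call of the 6 genes in WT against NC. In every other comparison at least 1 pair was at 0.1 or less. Alternatives were DESeq2 1.42.0, other scalings and filters, no fold threshold, a fit of the compared groups, a replicate block and leaving out libraries. No 2 replicates agreed within counting noise. PKD genes and protein sequences were not analysed here.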

Additional observations from a re-analysis of the deposited data

How the results depend on the processing

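The number of the 6 genes called was 0 in every comparison but Tg2 against NC, where it was 2. DESeq2 gave 1 in Tg1 against NC, in Tg3 against NC and in Tg2 against WT. Without the fold threshold there were 4 in Tg2 against NC and 1 in Tg2 against WT, with 1643 and 1099 genes called in the whole table (974 and 684 with it). A fit of the compared groups alone gave 1 in Tg1 against NC (ATP8, adjusted p = 0.0317), with 146 genes called in the whole table, and called 0 genes of the whole table in Tg2 against WT. With all replicates numbered 2 left out there were 4 in Tg2 against NC and 3 in Tg2 against WT, with 1216 and 1830 genes called in the whole table. Leaving out 1 library at a time gave 0 to 3 in Tg2 against NC, 0 to 1 in Tg2 against WT and 0 to 1 in Tg3 against WT. DESeq2 size factors, scaling without the mitochondrially encoded genes, no filter and edgeR's filterByExpr gave the counts of the report. The cause of these changes was not tested.

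With a replicate block 1 gene was called in Tg2 against WT (CYTB, -0.41, adjusted p = 0.0144), and the block changed no other call of the 6 genes. By their labels the samples of different plasmids share only a number, and in no comparison did every library correlate best with its own number (5 of 6 libraries did in WT and NC). Over all genes the block gave 246 calls in Tg1 against NC, 1624 in Tg2 against NC, 11 in Tg3 against NC, 66 in Tg1 against WT, 1578 in Tg2 against WT and 111 in Tg3 against WT, where the fit without it gave 138, 974, 0, 8, 684 and 0.

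Estimates near 0 changed sign. With all replicates numbered 2 left out, the log2 difference was 0.00208 for ATP6 and 0.0543 for CYTB in WT against NC, and -0.0128 for COX1 in Tg2 against NC. Leaving out 1 library at a time gave -0.0118 to 0.0188 for COX1 in Tg2 against NC, -0.0637 to 0.00781 for COX3, -0.0860 to 0.105 for CYTB and -0.0648 to 0.00509 for ATP6 in WT against NC, -0.0752 to 0.0193 for COX3 and -0.0851 to 0.0124 for ATP6 in Tg1 against WT, and -0.0277 to 0.00251 for COX1 in Tg3 against WT. Each reversed in one or more of those fits: WT against NC without WT replicate 2 (COX3, ATP6 and CYTB) or NC replicate 3 (COX3 and CYTB), Tg1 against WT without Tg1 replicate 2 (both genes) or WT replicate 3 (COX3), Tg2 against NC without NC replicate 1 or Tg2 replicate 2, and Tg3 against WT without Tg3 replicate 2 or 3. The number of 3 libraries a group limits the precision, and for ATP8, at 1760 to 3217 counts per library, counting error limits it too.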
